A study of Arabidopsis thaliana and Arabidopsis thaliana x Arabidopsis arenosa and Arabidopsis arenosa with 18 samples.

Results

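The JAZ genes JAZ1 to JAZ10 were followed across hybrid and control seeds and hybrid fruits of Arabidopsis. They were chosen by locus, and all 10 were found among the 33602 loci of the gene table. Read counts of poly-A RNA were available for 14 libraries in 7 groups of 2, all collected 3 days after pollination. The Col-0 (Col) and C24 mothers were diploid A. thaliana hemizygous for a male-sterility construct (ColA9 and C24A9), grown in long days and pollinated by hand. Control seeds came from ColA9 X Col-0 and from C24A9 X C24. Hybrid seeds came from the same mothers pollinated by a diploid A. arenosa var. Strecno, and whole siliques, the fruits with the seeds inside, were taken from both hybrid crosses. The last group was A. arenosa X A. arenosa control seed. The series set the Col hybrid, described as incompatible, against the C24 hybrid, described as compatible. The labels name a single A. arenosa plant for the crosses in the seed records and a single pair of plants in the silique and A. arenosa records, so the fathers sample little of that species. No silique of a control cross was analysed here.

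JAZ proteins are the repressors of jasmonate signalling. At rest they bind MYC2 and related transcription factors and, through the adaptor NINJA, bring in the co-repressor TOPLESS. The hormone jasmonoyl-isoleucine joins JAZ proteins to the receptor COI1, an F-box protein, and the JAZ proteins are then degraded, which frees the transcription factors. Many JAZ genes are themselves jasmonate targets, so their transcripts rise while the proteins are removed. In Arabidopsis the pathway is known for wound and insect responses and for stamen development.

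MYC2 and its relatives bind the G-box, a palindrome with the letters CACGTG. The 250 bases before the annotated start of each member were read from TAIR10.1, the RefSeq assembly, and searched for it. JAZ2, JAZ3, JAZ7 and JAZ8 held it, so that it was found in 4 of 10 members and in 6.5% of the windows of the same length before 27443 protein-coding genes. The 4 windows are shown 5′ to 3′ on the strand of the gene with the G-box in capitals, because these members differ widely in how their transcripts moved. They lie at chr1:28150447-28150696 (JAZ2, minus strand), chr3:6119457-6119706 (JAZ3, plus strand), chr2:14572780-14573029 (JAZ7, plus strand) and chr1:10596102-10596351 (JAZ8, plus strand).
JAZ2: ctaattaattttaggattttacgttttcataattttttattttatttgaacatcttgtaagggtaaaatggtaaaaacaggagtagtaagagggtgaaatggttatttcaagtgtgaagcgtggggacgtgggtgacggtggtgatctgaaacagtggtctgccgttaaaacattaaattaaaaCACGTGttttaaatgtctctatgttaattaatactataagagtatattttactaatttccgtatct
JAZ3: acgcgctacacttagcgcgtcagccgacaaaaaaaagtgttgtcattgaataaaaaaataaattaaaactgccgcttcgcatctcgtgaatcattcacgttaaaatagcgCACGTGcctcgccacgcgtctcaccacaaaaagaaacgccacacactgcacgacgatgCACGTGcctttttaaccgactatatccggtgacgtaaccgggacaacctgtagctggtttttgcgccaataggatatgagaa
JAZ7: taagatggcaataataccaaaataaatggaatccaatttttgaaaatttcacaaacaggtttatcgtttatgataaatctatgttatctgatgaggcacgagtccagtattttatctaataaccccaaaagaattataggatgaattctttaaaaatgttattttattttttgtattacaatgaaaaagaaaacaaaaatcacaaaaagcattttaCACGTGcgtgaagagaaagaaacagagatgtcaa
JAZ8: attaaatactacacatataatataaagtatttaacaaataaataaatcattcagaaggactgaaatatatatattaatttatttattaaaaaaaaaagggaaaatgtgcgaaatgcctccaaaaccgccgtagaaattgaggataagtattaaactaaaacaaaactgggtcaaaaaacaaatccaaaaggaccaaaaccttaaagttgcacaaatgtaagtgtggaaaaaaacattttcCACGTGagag
The first base of the G-box lies 66 bases before the start in JAZ2, 140 and 82 in JAZ3, 34 in JAZ7 and 10 in JAZ8. The variant CACATG, searched on both strands, was found in the windows of JAZ9 and JAZ10 and in 11.1% of all windows. No match of either kind was in the windows of JAZ1, JAZ4, JAZ5 and JAZ6, which says only that these letters are not there. A match is a description of the sequence and not a mapped binding site.

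Depth was between 8931520 and 16149496 gene reads in the 12 libraries with an A. thaliana mother, and 1777781 and 2089616 in the A. arenosa libraries. Replicates 1 of the Col and C24 controls had reads at more loci (31430 and 28243) than the other seed libraries of A. thaliana mothers (22555 to 26084). In the libraries labelled A. arenosa control seeds, the endosperm and pollen markers went against that tissue. Of 5 endosperm markers, 4 had no read in each, and the list summed to 0.471 and 0.463 CPM against 58.9 to 287 in the other seed libraries (CPM, reads scaled to a common library size). Their 5 pollen markers summed to 951 and 7014 CPM, against 4.38 to 22.5 in the other seeds and 39.2 to 149 in siliques. All 5 seed coat markers had reads in both, summing to 521 and 394 CPM against 1462 to 5587 in the other seeds. Embryo markers summed to 527 and 303 CPM, with reads at 1 and 2 of the 5. Fruit valve and replum markers summed to 269 and 369 CPM. Reads of the A. arenosa libraries were counted on the A. thaliana genome, so few matching reads and little RNA cannot be told apart. The part of tissue in their JAZ values was not tested. Hybrid seeds and siliques can also hold reads from the A. arenosa father, and C24 reads were counted on the same genome build as Col reads. The part of read matching in the hybrid and accession comparisons was not tested. Levels in these bulk samples also cannot tell fewer cells of a type from less RNA per cell.

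JAZ1 was the most abundant member in seeds of A. thaliana mothers. Its protein is a classic target of the COI1 receptor, and the JAZ2 protein is its closest relative. JAZ1 (AT1G19180, chromosome 1) stood at 106 and 173 CPM in Col control 1 and 2 and at 90.8 and 78.6 in C24 control 1 and 2. In hybrid seeds it stood at 124 and 112 CPM with the Col mother and at 66.03 and 89.7 with the C24 mother. The Col controls therefore lay on either side of the Col hybrids, and the C24 pairs overlapped as well. JAZ1 reached 97.2 and 95.6 CPM in Col hybrid siliques and 119 and 155 in C24 hybrid siliques. In the libraries labelled A. arenosa it was 34.4 and 26.4 CPM, below every other library.

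JAZ2 (AT1G74950, chromosome 1), best known from guard cells, ran close to JAZ1. It stood at 38.7 and 56.6 CPM in the Col controls, 37.5 and 38.0 in the C24 controls, 57.0 and 54.6 in Col hybrid seeds and 46.5 and 52.8 in C24 hybrid seeds. Its siliques had 42.1 and 45.7 CPM in the Col cross and 74.1 and 71.4 in the C24 cross, the highest of all libraries. The A. arenosa libraries had 11.3 and 5.55 CPM, from 24 and 12 reads.

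**Figure D1:**
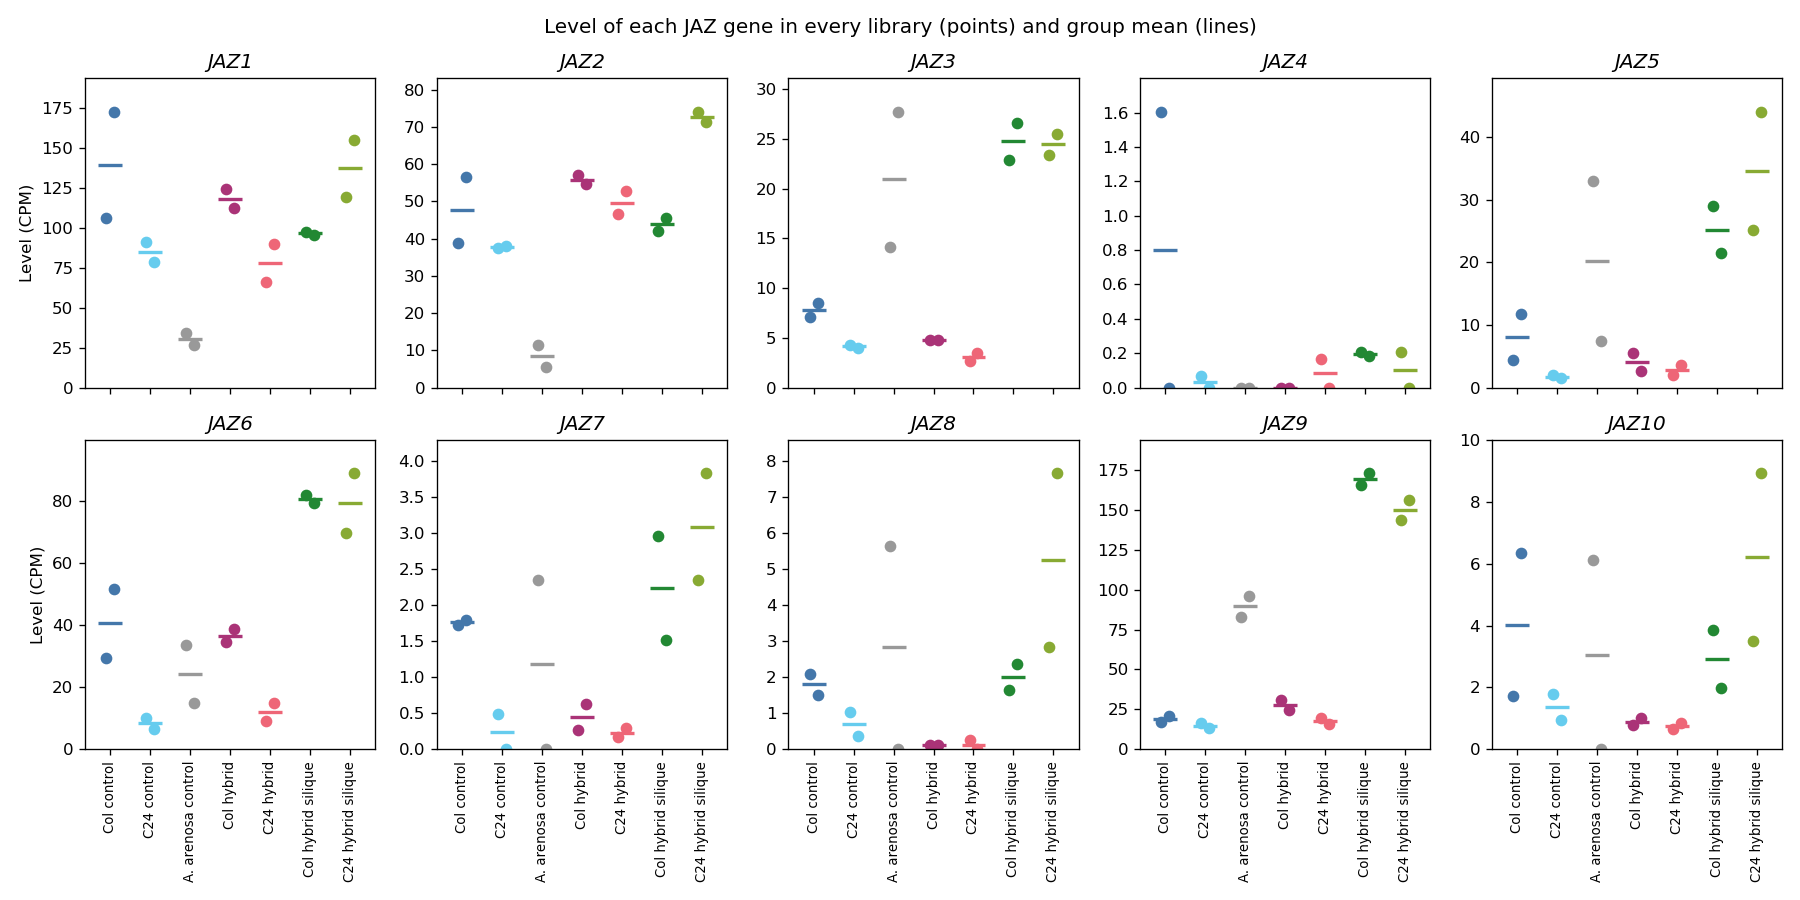
Level of each JAZ gene in CPM (vertical axis, linear, its own scale per panel) in the 7 groups; points are the 2 libraries of a group and lines their mean. JAZ9 lies between 143 and 173 CPM in the 4 silique libraries and at 30.9 CPM or lower in the 8 seed libraries of A. thaliana mothers, while JAZ1 has no such gap.

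JAZ3 and JAZ9 were low in seeds and high in siliques. JAZ3, found through the jai3 mutant whose truncated protein resists degradation, is AT3G17860 on chromosome 3. It had 7.04 and 8.54 CPM in the Col controls, 4.28 and 4.02 in the C24 controls, 4.82 and 4.76 in Col hybrid seeds and 2.66 and 3.46 in C24 hybrid seeds. Siliques held 22.9 and 26.6 CPM in the Col cross and 23.4 and 25.5 in the C24 cross, so the lowest silique was above the highest of these seeds. The A. arenosa libraries had 14.1 CPM, between these seeds and the siliques, and 27.7 CPM, above all siliques. JAZ9 (AT1G70700, chromosome 1), whose protein also binds the DELLA repressor RGA of gibberellin signalling, had 17.2 and 20.9 CPM in the Col controls, 16.3 and 13.1 in the C24 controls, 30.9 and 24.4 in Col hybrid seeds and 19.5 and 15.6 in C24 hybrid seeds. It reached 166 and 173 CPM in Col hybrid siliques, 143 and 156 in C24 hybrid siliques, and 82.8 and 96.2 in the A. arenosa libraries. The highest seed library of an A. thaliana mother, Col hybrid 1, thus lay below all 6 of these.

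JAZ5 and JAZ6 are a pair of close relatives, and JAZ6 was uneven between the maternal accessions in control and hybrid seeds. JAZ6 (AT1G72450, chromosome 1) had 29.5 and 51.7 CPM in the Col controls against 10.1 and 6.57 in C24 controls. Hybrid seeds showed the same order, with 34.5 and 38.6 CPM for the Col mother against 9.24 and 14.8 for the C24 mother. All 4 seed libraries of Col mothers thus lay above all 4 of C24 mothers. In siliques the crosses overlapped, with 81.9 and 79.4 CPM for Col and 69.6 and 88.9 for C24. The A. arenosa libraries had 33.4 and 14.8 CPM. JAZ5 (AT1G17380, chromosome 1) had 4.39 and 11.8 CPM in the Col controls, 2.00 and 1.46 in the C24 controls, 5.48 and 2.63 in Col hybrid seeds and 2.08 and 3.66 in C24 hybrid seeds, so that it separated the accessions in control seeds and overlapped in hybrid seeds. Its siliques held 29.0 and 21.4 CPM in the Col cross and 25.2 and 44.1 in the C24 cross, above all of these seeds.

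JAZ7, JAZ8 and JAZ10 rested on few reads in seeds. JAZ8 (AT1G30135, chromosome 1) lacks the canonical degron and resists removal by the hormone. Col controls gave 34 and 22 reads of JAZ8, while the Col hybrids gave 2 and 1 (0.130 and 0.125 CPM). The C24 controls gave 15 and 5 reads and the C24 hybrids 3 and 0. Siliques gave 24 and 39 reads in the Col cross and 41 and 102 in the C24 cross, the latter 2.83 and 7.65 CPM. JAZ7 (AT2G34600, chromosome 2), known from dark-induced leaf senescence, gave 28 and 26 reads in Col controls, 4 and 5 in the Col hybrids, 7 and 0 in C24 controls and 2 and 3 in the C24 hybrids. Its siliques had 43 and 25 reads in the Col cross and 34 and 51 in the C24 cross. JAZ10 (AT5G13220, chromosome 5), whose splice forms resist degradation and dampen the response, lay at 1.73 and 6.34 CPM in Col controls, 0.782 and 1.00 in the Col hybrids, 1.79 and 0.949 in C24 controls and 0.666 and 0.866 in the C24 hybrids. Siliques held 3.84 and 2.00 CPM in the Col cross and 3.52 and 8.93 in the C24 cross. JAZ10 overlaps a long non-coding RNA on the other strand by 71 bases, and without strand their reads cannot be separated. All 3 genes had reads in A. arenosa control 1 (5, 12 and 13 for JAZ7, JAZ8 and JAZ10) and none in A. arenosa control 2, where a count of 0 allows up to 1.39 CPM, counting error only.

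JAZ4 (AT1G48500, chromosome 1), whose protein, like JAZ1, binds the cold regulator ICE1, was scarcely detected. It had 26 reads in Col control 1, the library with reads at the most loci, and 0 in Col control 2. The other 12 had 0 to 3 reads each, none of them in the Col hybrid seeds or the A. arenosa libraries. It failed the filter on low counts in every comparison and was not tested.

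Per kilobase of exon, the scale on which genes can be compared, the family was arranged differently in seeds and siliques. JAZ1 ranked first and JAZ2 second in all 4 seed groups of A. thaliana mothers. In Col controls they had 77.3 ± 26.0 and 34.7 ± 9.16 CPM per kb (SD, n = 2) and did not overlap. In C24 hybrid seeds, at 43.2 ± 9.26 and 36.1 ± 3.22 CPM per kb, their libraries overlapped. JAZ9 ranked first in siliques, where it stood at 91.3 ± 2.82 CPM per kb in the Col cross, above JAZ1 at 53.4 ± 0.615, and at 80.7 ± 4.73 in the C24 cross, overlapping JAZ1 at 76.1 ± 13.99. It also led in the libraries labelled A. arenosa, at 48.3 ± 5.10 CPM per kb against 16.8 ± 3.14 for JAZ1. Reads there may match A. thaliana exons unevenly between genes, so the order and shares of members in those libraries are less certain.

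The order below the leaders also shifted. JAZ6 held rank 3 in Col control and Col hybrid seeds (19.1 ± 7.40 and 17.2 ± 1.35 CPM per kb), while JAZ9 held it in C24 control and C24 hybrid seeds (7.95 ± 1.23 and 9.46 ± 1.49). In Col hybrid seeds JAZ6 and JAZ9 did not separate beyond their spread. JAZ5 and JAZ3 did not separate in Col control, Col hybrid or C24 hybrid seeds, nor did JAZ8, JAZ7 and JAZ10 in the Col controls. JAZ4 was last in every group. Summed over the family, the level was 84.4 to 188 CPM per kb in the 8 seed libraries of A. thaliana mothers, 90.9 to 120 in the A. arenosa libraries and 241 to 311 in siliques. JAZ1 and JAZ2 made up 71.9 to 84.4% of that sum in those seeds, 35.1 to 46.6% in siliques and 20.5 to 22.7% in the A. arenosa libraries. The share of JAZ3, JAZ5, JAZ6 and JAZ9 was 14.6 to 25.0% in those seeds and 49.8 to 62.0% in siliques. The shares are parts of one sum, so a rise in one lowers the other. Neither JAZ1 nor JAZ2 was called lower in siliques than in hybrid seeds.

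**Figure D2:**
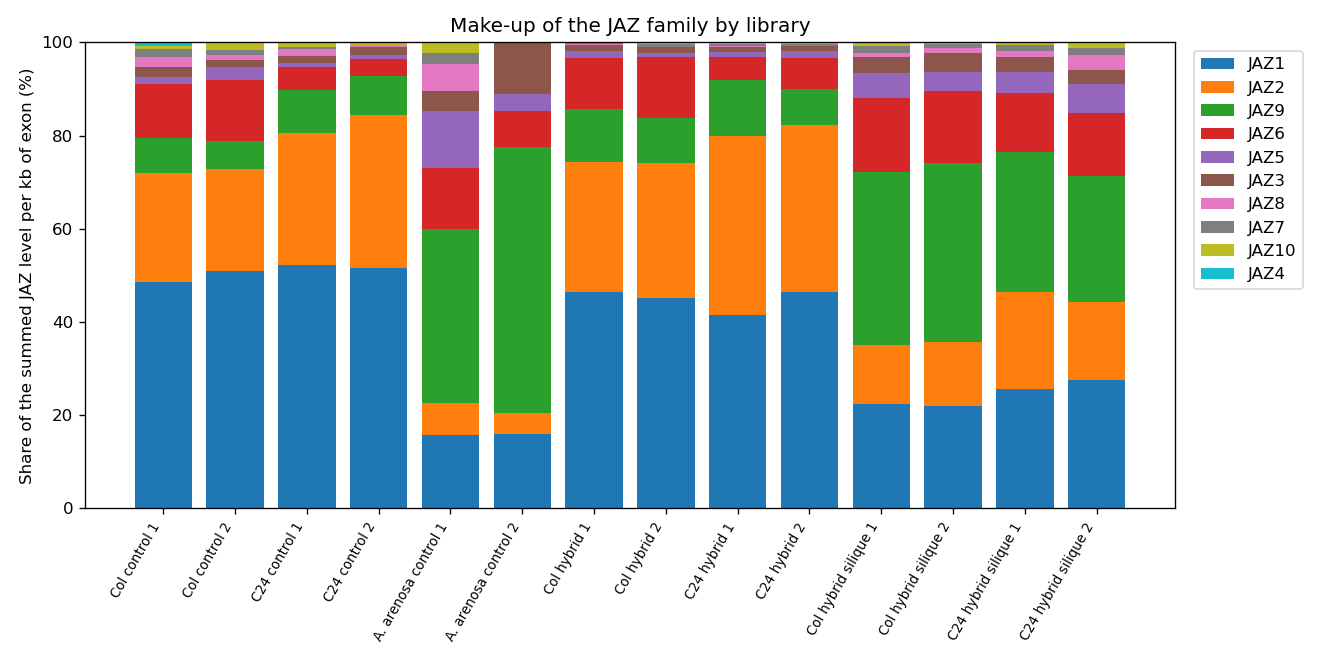
Share of each JAZ gene in the summed family level per kb of exon (vertical axis, percent) in each of the 14 libraries (bars). JAZ1 and JAZ2 fill 71.9 to 84.4% of the bars of the 8 seed libraries of A. thaliana mothers and 35.1 to 46.6% of the 4 silique bars.

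Whole siliques, with the seeds inside, were compared with hybrid seeds of the same cross. In the Col cross, 7 of the 9 members that passed the filter were higher in siliques and none was lower, by edgeR's quasi-likelihood test at an adjusted p of 0.05. Of all genes tested in that comparison, 53.2% were called in either direction and 29.8% were called higher. In the C24 cross all 9 that passed were higher, where 58.8% of all genes were called and 31.9% were called higher. The median log2 difference of those members was 2.40 in the Col cross and 3.01 in the C24 cross, against 0.05 and 0.04 over all genes. The silique and seed records carry protocol texts of their own in the labels, so tissue and set of libraries cannot be told apart.

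JAZ9 showed a change of 2.64 ± 0.22 on the log2 scale (SE) in the Col cross (edgeR adjusted p = 2.42e-05) and of 3.08 ± 0.23 in the C24 cross (9.7e-06), which is 6.25-fold and 8.48-fold. JAZ3 rose by 2.40 ± 0.22 (adjusted p = 3.48e-05) and 3.00 ± 0.23 (1.15e-05) in edgeR. For JAZ5 the differences were 2.61 ± 0.41 (0.000749) and 3.61 ± 0.43 (0.000139). These calls held under every alternative run. JAZ6 was 2.27-fold higher in Col siliques (log2 1.19 ± 0.22, adjusted p = 0.00177) and 6.63-fold higher in C24 siliques (2.73 ± 0.23, 2.2e-05), also under every alternative. Its silique levels overlapped between the crosses, while its seed levels were the higher ones in the Col cross.

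The scarce members rose too. JAZ8 reads per scaled library were 15.8 times as high in Col siliques as in Col hybrid seeds (95% counting interval 5.15 to 78.5, 63 against 3 reads) and 38.4 times as high in the C24 cross (12.9 to 188, 143 against 3 reads), with edgeR adjusted p of 0.00631 and 0.000921. These intervals cover counting error only. JAZ7 rose by 2.47 ± 0.65 (adjusted p = 0.0105) in the Col cross and 3.72 ± 0.69 (0.00157) in the C24 cross. JAZ10 rose by 1.76 ± 0.59 (0.0311) and 3.01 ± 0.60 (0.00217). In the Col cross the calls of JAZ7, JAZ8 and JAZ10 ended without Col hybrid 1 (4 members called). JAZ7 and JAZ10 also lost theirs without Col hybrid silique 1 and in a fit over all 7 groups, as JAZ10 did without Col hybrid 2.

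JAZ1 and JAZ2 had the smallest differences of the 9 in both crosses. In the Col cross neither passed the test, with log2 differences of -0.25 ± 0.21 (edgeR adjusted p = 0.322) and -0.31 ± 0.16 (0.127). In the C24 cross JAZ1 was 1.77-fold higher in siliques (log2 0.82 ± 0.21, 0.00782) and JAZ2 1.47-fold higher (0.55 ± 0.16, 0.0143). The JAZ1 call ended without C24 hybrid 1 or C24 hybrid silique 2, and the JAZ2 call without any 1 of the 4 libraries compared and in a fit over all 7 groups. A test of the difference between the crosses was added after the values were seen. By edgeR it called 0 of 9 members, where 0.290% of all genes were called and 3 members had an unadjusted p below 0.05. JAZ6 came nearest (log2 -1.54 ± 0.31, adjusted p = 0.0981), ahead of JAZ2 (-0.86 ± 0.22, 0.195) and JAZ1 (-1.08 ± 0.29, 0.215). DESeq2 called 1 member, JAZ6 (0.00637).

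**Figure D3:**
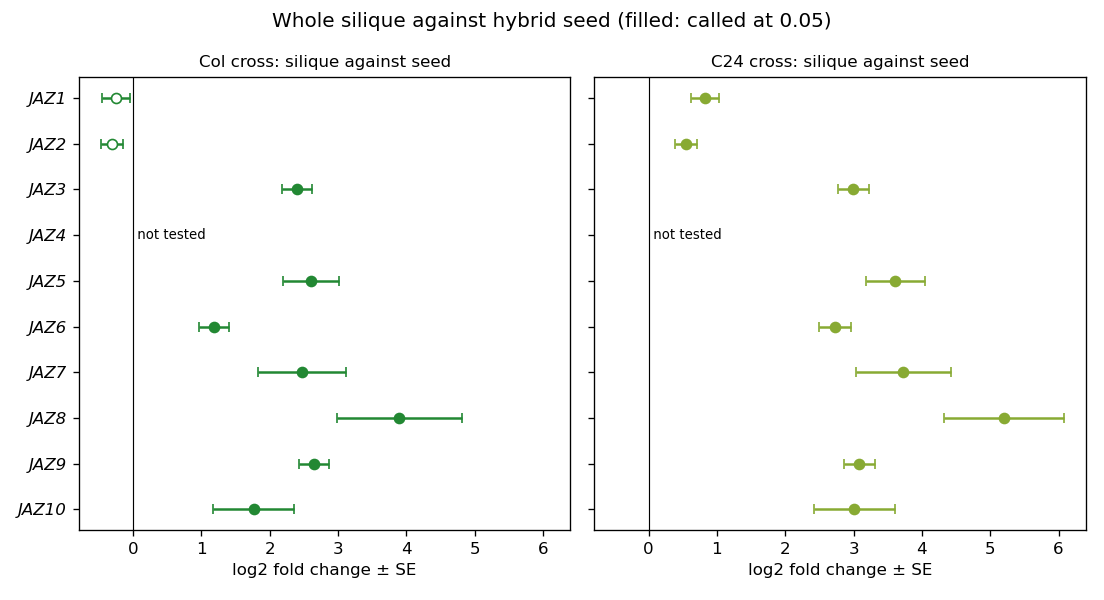
Log2 fold change with its SE (horizontal axis) of each JAZ gene in whole siliques against hybrid seeds, for the Col cross (left) and the C24 cross (right); filled points passed edgeR's test at an adjusted p of 0.05. JAZ3, JAZ5, JAZ6, JAZ7, JAZ8, JAZ9 and JAZ10 are filled in both panels, and JAZ1 and JAZ2 only on the right, a difference between crosses that did not itself pass the test.

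Between the silique groups of the crosses, JAZ2 was lower with the Col mother (log2 -0.73 ± 0.16, edgeR adjusted p = 0.0321), the only member called there, where 4.31% of all genes were called. That call ended without any 1 of the 8 libraries and in 3 other alternatives, with adjusted p of up to 0.166. Some tissue marker lists also differed between siliques and seeds. The 5 endosperm markers summed to 5.70 to 15.4 CPM in siliques and 117 to 287 in hybrid seeds. Of them 3 were called lower in the Col cross and 4 in the C24 cross, and none higher. The 5 seed coat markers summed to 676 to 964 and 1462 to 2025 CPM, with 5 called lower in the Col cross and 4 in the C24 cross. Embryo markers overlapped, at 106.5 to 309 CPM in siliques and 70.0 to 320 in hybrid seeds. Of the 5 fruit valve and replum markers, 3 rose (FUL and IND among them) and 1 fell in each cross, while their sum was 332 to 366 CPM in siliques and 312 to 367 in hybrid seeds. Pollen markers summed to 39.2 to 149 CPM in siliques and 13.2 to 22.5 in hybrid seeds, with all 5 detected in each. The part of these tissues in the JAZ differences was not tested.

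Other genes of the pathway were counted by list in the same silique comparisons. The share of all genes called was 53.2% in the Col cross (29.8% higher) and 58.8% in the C24 cross (31.9% higher). Of 8 tested output genes 7 rose and none fell in either cross, among them VSP1, a vegetative storage protein and standard jasmonate marker. Its level was 17.7 and 10.0 CPM in the Col hybrids as seeds and 3701 and 3253 as siliques (log2 7.99 ± 0.49, edgeR adjusted p = 6.48e-06), and rose by 9.93 ± 0.55 (3.3e-06) in the C24 cross. Of 13 synthesis genes tested, 4 rose and 3 fell in the Col cross and 6 rose and 4 fell in the C24 cross. LOX2, the lipoxygenase of leaf jasmonate synthesis, was at 9.84 and 7.14 CPM in the Col hybrids as seeds and at 733 and 1360 as siliques (log2 6.96 ± 0.45, 8.32e-06). Its mean in the C24 cross was 2.38 CPM in hybrid seeds and 1061 in siliques. JAR1, which joins jasmonate to isoleucine, fell by 1.67 ± 0.23 on the log2 scale in the Col cross (0.000327). Of 11 genes of perception and JAZ partners, 5 rose and 1 fell in the Col cross and 5 rose in the C24 cross. The receptor COI1 rose by 1.96 ± 0.23 (0.000152) and 1.75 ± 0.23 (0.000225), and MYC2 by 1.42 ± 0.22 (0.000716) and 1.22 ± 0.22 (0.00129). Of 6 turnover genes tested, 1 rose and 1 fell in each cross, and of the 6 other TIFY genes, relatives of the JAZ genes, 2 rose in the C24 cross (TIFY8 and JAZ12) and none in the Col cross.

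Hybrid seeds were set against control seeds of the same mother, the comparison of the incompatible and the compatible cross. No JAZ gene was called in either. Reads from the A. arenosa father were counted on the A. thaliana genome, and the part of their matching in these differences was not tested. In the Col cross edgeR called 0 of 9 members and DESeq2 called 0, while 16.8% of all genes were called, and 4 members had an unadjusted p below 0.05. In the C24 cross both tools again called 0 of 9, where 31.8% of all genes were called and 1 member had an unadjusted p below 0.05. The median log2 difference of the members that passed was -0.66 in the Col cross and -0.08 in the C24 cross, against -0.01 and 0.00 over all genes. The test of the difference between the crosses called 0 members with edgeR and 0 with DESeq2, with none at an unadjusted p below 0.05, where 1.39% of all genes were called.

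In the Col cross the 4 members nearest the threshold were not all on one side. JAZ8 was lower in hybrids in both libraries, by 14.2 times in reads per scaled library (95% counting interval 4.61 to 70.8, 56 against 3 reads), with an edgeR adjusted p of 0.0812. JAZ10 was lower in both (log2 -2.11 ± 0.73, adjusted p = 0.0824), but its Col controls themselves differed by 3.66 times (2.38 to 5.81, counting error only). JAZ3 was lower in both (-0.66 ± 0.24, 0.0907) and JAZ9 higher in both (0.58 ± 0.20, 0.0824). The libraries of JAZ7 did not overlap either (-1.99 ± 1.28). The share of all genes without overlap was not computed for this comparison, so these orders are description only. Calls appeared under some alternatives. With no filter JAZ9 and JAZ10 were called. JAZ8 was called in a fit of the compared groups alone (0.0291), and JAZ10 without Col control 1 (0.00992) and without replicates 1 of both A. thaliana controls (0.0109). Without Col control 2 the call was JAZ2 instead, higher in hybrids (0.0486).

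In the C24 cross JAZ2 was nearest, 1.36-fold higher in hybrids (log2 0.44 ± 0.16, edgeR adjusted p = 0.0612) with both hybrid libraries above both controls. JAZ8 was 5.3 times lower in reads per scaled library (1.57 to 27.8, 20 against 3 reads) with an adjusted p of 0.199. JAZ3 (-0.39 ± 0.25) and JAZ10 (-0.80 ± 0.73) were lower in both hybrid libraries as well, and JAZ5 was higher in both (0.76 ± 0.56). The libraries of the other tested members overlapped. Here too the share of all genes without overlap was not computed, and the orders are description only.

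**Figure D4:**
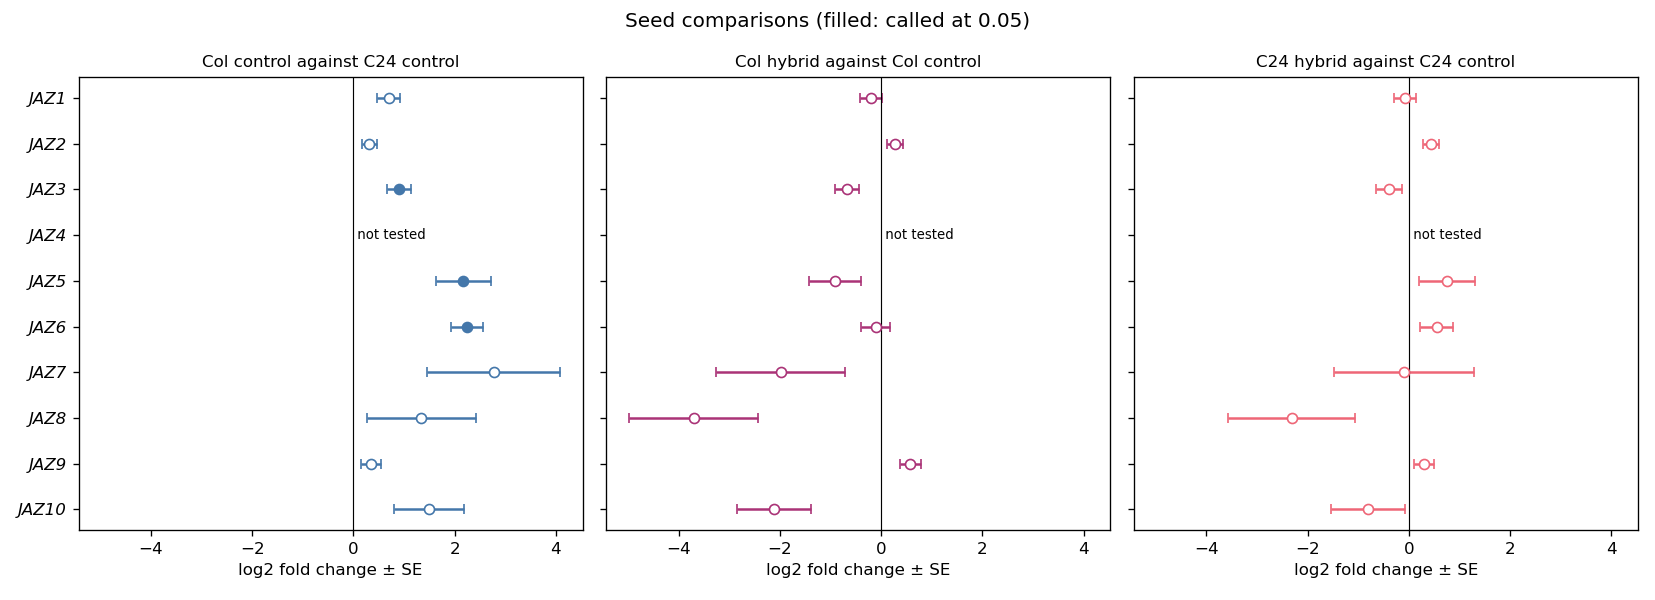
Log2 fold change with its SE (horizontal axis) of each JAZ gene in Col against C24 control seeds (left) and in hybrid against control seeds of the Col mother (middle) and the C24 mother (right); filled points passed edgeR's test at an adjusted p of 0.05. JAZ3, JAZ5 and JAZ6 are filled on the left and no member is filled in the other panels.

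Other genes of the pathway were called in hybrid seeds. The share of all genes called was 16.8% in the Col cross and 31.8% in the C24 cross. NINJA, the adaptor between JAZ proteins and TOPLESS, rose in both crosses, from 29.6 and 29.0 to 43.9 and 41.4 CPM with the Col mother (log2 0.57 ± 0.13, edgeR adjusted p = 0.024) and from 29.5 and 26.8 to 46.8 and 44.9 CPM with the C24 mother (0.75 ± 0.13, 0.00416). MYC2 rose by 1.08 ± 0.29 (0.0229) in the C24 cross. Those were the only calls among the 9 tested genes of perception and partners. Of 14 synthesis genes 12 were tested. Of these, 3 rose in the Col cross (AOC4, LOX3 and AOS) and 5 rose and 1 fell in the C24 cross. AOC4, an allene oxide cyclase, rose by 1.16 ± 0.21 (0.00977) and 1.04 ± 0.22 (0.00852). Of 10 turnover genes 7 were tested. Only ILL6, an amidohydrolase that cleaves the active conjugate, was called, rising by 1.22 ± 0.13 (0.0012) and 1.69 ± 0.13 (0.000178). Of 12 output genes only 6 passed the filter and were tested, and none was called in the Col cross. In the C24 cross JR1, a jasmonate-responsive lectin gene, fell by 3.13 ± 0.28 on the log2 scale (0.000304), and it alone of the listed pathway genes also differed between the crosses (interaction 3.49 ± 0.38, 0.00544). Of the 6 other TIFY genes JAZ12 fell in the C24 cross (-0.66 ± 0.17, 0.0193) and none was called in the Col cross.

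Col and C24 control seeds were compared for the difference between the accessions without hybridity. Mother and father both differ here, so the maternal line is not set apart. JAZ6, JAZ5 and JAZ3 were higher in Col, 3 of 9 members, and none was lower. Of all genes 16.8% were called in either direction and 7.85% were called higher in Col. JAZ6 was 4.74-fold higher (log2 2.25 ± 0.31, edgeR adjusted p = 0.00259), and this held in all 17 alternatives, with adjusted p of at most 0.00959. JAZ5 was 4.51-fold higher (2.17 ± 0.54, 0.0287), a call that ended without Col control 2 and in a fit over all 7 groups (up to 0.121). JAZ3 was 1.86-fold higher (0.89 ± 0.24, 0.0353), a call that ended in 11 of 17 alternatives, with adjusted p of up to 0.308. Both libraries of Col lay above both of C24 for 8 of the 9, as they did for 28.0% of all genes tested, and the median log2 difference was 1.34 against 0.01 over all genes. The Col control libraries enter this comparison and that of the Col hybrid. JAZ1 was 1.62-fold higher (0.69 ± 0.22) but did not pass (0.0626), although it did under 6 alternatives.

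Hybrid seeds of the Col mother and of the C24 mother were also compared directly. JAZ6 was 2.99-fold higher with the Col mother (log2 1.58 ± 0.31, edgeR adjusted p = 0.0151), the only member called of 9, where 9.78% of all genes were called. The call ended without C24 hybrid 1 (0.0771). JAZ9 (0.63 ± 0.20, 0.0933), JAZ1 (0.58 ± 0.22, 0.145) and JAZ3 (0.62 ± 0.25, 0.169) had an unadjusted p below 0.05 in the same direction. Other pathway genes were called in both directions. Of 12 synthesis genes tested, 4 were higher and 1 lower in Col control seeds, and 3 higher and 1 lower in Col hybrid seeds. Of 6 output genes tested, 3 were higher and 1 lower in controls, and 4 higher and none lower in hybrids. The share of all genes called was 16.8% in controls and 9.78% in hybrids. LOX2 was higher with the Col mother in control seeds (2.07 ± 0.34, 0.00513) and in hybrid seeds (1.83 ± 0.35, 0.0129), and so was VSP1 (2.33 ± 0.33, 0.00279 and 2.76 ± 0.35, 0.00183). MYC4, a relative of MYC2, was lower with the Col mother in controls (-1.06 ± 0.15, 0.00267) and in hybrids (-0.89 ± 0.15, 0.0074).

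In the libraries labelled A. arenosa control seeds, JAZ1 and JAZ2 were lower than in either A. thaliana control. JAZ1 was 4.63-fold lower than in Col (log2 -2.21 ± 0.30, edgeR adjusted p = 0.000283) and 2.84-fold lower than in C24 (-1.51 ± 0.29, 0.00201), and JAZ2 was 5.71-fold lower (-2.51 ± 0.32, 0.000219) and 4.57-fold lower (-2.19 ± 0.32, 0.000403). JAZ9 was higher than in Col (2.22 ± 0.23, 6.84e-05) and C24 (2.57 ± 0.24, 2.72e-05). So was JAZ3, by 1.41 ± 0.33 (0.00586) and 2.31 ± 0.34 (0.000402), though its call against Col ended without replicates 1 of both controls (0.0577). Against C24 alone, JAZ5 (3.51 ± 0.75, 0.00339) and JAZ6 (2.83-fold, 0.0166) were also higher. The JAZ6 call ended without A. arenosa control 1 or C24 control 2 (up to 0.238). In these comparisons 4 and 6 of the 9 members tested were called, beside 49.0% and 53.5% of all genes, and the median log2 difference of all genes was -0.25 against Col and -0.24 against C24. The counts of members lie near those shares. The part of read matching and of tissue in these differences was not tested.

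Both hybrids were set against the A. arenosa libraries in turn. In either hybrid JAZ1 and JAZ2 were higher and JAZ3, JAZ5 and JAZ9 lower, 5 of 9 members in each, where 49.8% (Col hybrid) and 51.2% (C24 hybrid) of all genes were called. The count of members again lies near the share of all genes, and the part of read matching and tissue was not tested. The comparisons share the A. arenosa libraries, and their directions are therefore not independent. JAZ1 differed by 1.99 ± 0.30 in the Col hybrid (edgeR adjusted p = 0.000482) and 1.39 ± 0.29 in the C24 hybrid (0.00328), and JAZ9 by -1.66 ± 0.23 (0.000308) and -2.31 ± 0.23 (5.15e-05). Both JAZ5 calls ended without A. arenosa control 1 (up to 0.453), that of the Col hybrid also without either Col hybrid library, and that of the C24 hybrid also without C24 hybrid 1. JAZ5 had 70 reads in that library and 16 in the other, a ratio of 0.225 (0.122 to 0.391, counting error only).

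Replicates of a group were not equally even for all members. In the Col controls the second library exceeded the first by 3.66 times for JAZ10, 2.69 times for JAZ5, 1.76 times for JAZ6 and 1.62 times for JAZ1, and JAZ8 went the other way at a ratio of 0.722. In C24 hybrid siliques the second exceeded the first by 2.71 times for JAZ8 (1.87 to 3.99), 2.54 times for JAZ10, 1.75 times for JAZ5 and 1.63 times for JAZ7, while JAZ2 was even at 0.964. JAZ9, at ratios from 0.790 to 1.22, kept its replicates within that range in every group.

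Some members had like profiles across the 14 libraries. On the log2 CPM scale the pairs with a Pearson's r above 0.85 were JAZ3 and JAZ9 (0.93), JAZ1 and JAZ2 (0.93), JAZ7 and JAZ10 (0.88), JAZ5 and JAZ9 (0.88), JAZ8 and JAZ10 (0.87), JAZ3 and JAZ5 (0.86) and JAZ7 and JAZ8 (0.86). The lowest was -0.27 for JAZ2 and JAZ3. These are descriptions over 14 points that include pairs from the same group and the shallow A. arenosa libraries. Outside the family, the 5 genes most like the mean standardised profile of the 9 members past the filter were AT4G24380 (r = 0.94), AT1G69526 (0.93), RAD51D (0.93), HVA22D (0.93) and AT3G14540 (0.92), of 22626 genes compared. Those most like JAZ1 were TCH3 (0.96), a calmodulin-like gene first known as touch-induced, CML38 (0.95), another calmodulin-like gene, and BT5 (0.94).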

How the data were processed

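Members were taken by locus from the gene table. For 14 libraries the authors deposited unnormalised read counts, in whole numbers, for each gene. The 4 columns of A. thaliana controls each add up 2 of the 18 records, per the file headers, and each such sum entered as 1 library. Alternatives on separate records could therefore not be run. BWA and the TAIR10 build were used per the submitters' processing notes. Its version, how reads were counted, whether strand was used and what became of multiply matching reads are not given in the sources used here. Of the 31-base words of the members' exons, 0% were found elsewhere in the genome, except 0.14% for JAZ10.

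The tests on these counts used edgeR 4.0.16 under R 4.3.3 (TMM scaling, filterByExpr by group, glmQLFit and glmQLFTest), with Benjamini-Hochberg adjustment over all genes of the fit and a threshold of 0.05. The 4 seed groups of A. thaliana mothers shared a fit (20552 genes), as did those with the A. arenosa group (21619) and the 4 hybrid seed and silique groups (20700). The SE was taken as the size of the log2 fold change over the square root of F. Levels are CPM with TMM factors of all 14 libraries, and per-length levels divide them by the union of exons in TAIR10.1. Floors (3 reads per library) and exact 95% intervals on read ratios cover counting error only. A count of 3 reads was 0.182 to 0.376 CPM, and 1.41 and 1.39 in the A. arenosa libraries.

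The members, lists and tests were chosen with earlier results of these data known. All members were described, and of each pathway list at most the 3 called genes with the smallest adjusted p were named with values per comparison. The means of LOX2 and JAR1 in the C24 cross were added as description. Genes of like pattern were the 5 nearest the mean member profile and the 3 nearest JAZ1. Other scalings (RLE, upper quartile), other filters (none, or 5 CPM in 2 libraries), DESeq2 1.42.0, other sets of libraries, a replicate block and leave-one-out fits were run. Replicates of every group differed beyond sampling noise. The labels do not say that they came from separate plants, and p-values thus reflect only the spread among these samples, possibly a technical one. The fitting steps were run on simulated counts with the same spread set for every gene, a simpler setting than these data.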

Additional observations from a re-analysis of the deposited data

How the results depend on the processing

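For hybrid against control seeds of the Col mother, no member was called by edgeR, but 2 were with no filter (JAZ9 higher and JAZ10 lower), and 1 each with the groups compared alone, and without replicates 1 of both A. thaliana controls, a choice made after seeing the data. Leaving out 1 library gave 0 to 1. In the C24 cross a minimum of 5 CPM gave 1 (JAZ2) and leaving out 1 library 0 to 0. Of the hybrid seeds compared directly, leaving out 1 library gave 0 to 1 calls. For Col against C24 controls the 3 calls became 1 in a fit over all 7 groups, 5 without replicates 1 of both controls, and 1 to 5 with 1 library left out. Ranges with 1 library left out were 3 to 6 for A. arenosa against Col, 5 to 6 against C24, 4 to 7 and 4 to 8 for the Col and C24 hybrids against A. arenosa, 4 to 7 for Col siliques and 7 to 9 for C24 siliques against seeds, and 0 to 0 for the crosses' siliques. Col siliques gave 4 calls at a minimum of 5 CPM, where 6 members were tested. The crosses' siliques, with 1 call, gave 0 in the fit over all 7 groups and 0 with the groups compared alone. The tissue by cross difference gave 2 calls with no filter, 1 with DESeq2 and 0 to 0 with 1 library left out. Without A. arenosa control 1, JAZ8 reversed against the Col hybrid (log2 3.75, edgeR adjusted p = 0.646) and the C24 hybrid (3.75, 0.637), since the remaining A. arenosa library had no JAZ8 read. With 1 library left out these differences reached -5.31 and -7.92 at the other end.

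With a replicate block, 1 member was called in Col hybrid against control seeds (JAZ8, lower, adjusted p = 0.0376) and 0 between the crosses' siliques. The labels do not say that replicate numbers pair the samples, and the data were mixed. Differences between replicates correlated at 0.645 between the Col and C24 controls and at 0.367 and 0.332 between these and the C24 hybrid seeds, but at -0.363 to 0.096 between all other groups. Upper quartile scaling moved the median of all genes in Col hybrid against control seeds from -0.01 to -0.16. RLE and upper quartile scaling moved that of A. arenosa against C24 controls from -0.24 to -0.08 and -0.04, where no member's call was lost. Values of JAZ4, JAZ7 and JAZ8 rested on 0 to 5 reads a library in hybrid seeds, and those of JAZ7, JAZ8 and JAZ10 on 0 to 13 in the A. arenosa libraries.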
